A study of Homo sapiens with 6 samples.

Results

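Oxidative phosphorylation is run by 4 respiratory complexes that pass electrons to oxygen, by the mobile carrier cytochrome c, and by complex V, the ATP synthase. The genes described here are its nuclear-encoded subunits. They were chosen by name, as protein-coding genes whose symbols begin with NDUF, UQCR or ATP5, the COX genes numbered 4 to 8, SDHA to SDHD, CYC1 and CYCS, with hyphenated names left out. Of 60664 genes in the table, 98 matched. The match itself used names and no measured value, but the set was chosen with earlier results of these data known. The names also bring in 8 assembly factors of complex I, the NDUFAF genes, which are not subunits of the finished complex and are counted apart. By complex there were 37 subunits of complex I, 4 of complex II, 10 of complex III and 19 of complex IV. There were also 19 genes of complex V, and cytochrome c itself. The complex V genes include ATP5IF1, an inhibitor of the enzyme and not a subunit, which is counted with them.

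RNA-seq libraries came from cells with a stable hairpin RNA aimed at PDGFC (shPDGFC, n = 3) or with the hairpin labelled shNC (n = 3). PDGFC encodes a secreted platelet-derived growth factor. The cells are named LNCaP, a human prostate cancer line, in the source label and LNCaPE in the titles, and the design text calls them a stably transduced derivative with resistance to enzalutamide, an antiandrogen. Both groups share that background, the culture medium (DMEM with serum) and the total RNA protocol. The labels give no clone, no second hairpin and no separate cultures, so p-values reflect variation among the libraries at hand, possibly technical.

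Complex I takes electrons from NADH and complex II, which is also the succinate dehydrogenase of the citric acid cycle, takes them from succinate. Complex III hands them to cytochrome c, and complex IV, cytochrome c oxidase, passes them to oxygen. Complexes I, III and IV pump protons, and complex V uses the resulting gradient to make ATP. Each complex except II joins nuclear-encoded subunits, imported from the cytosol, with subunits encoded in the mitochondrial genome. Nuclear respiratory factor NRF1 and the ETS-family factor GABP are known to bind many promoters of these genes.

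PDGFC itself (GRCh38 chromosome 4, 156760454 to 156971394) stood at 3.0, 2.43 and 2.52 RPKM in the shPDGFC libraries, against 8.19, 8.71 and 8.13 RPKM in the shNC libraries. Its ratio was 0.318, and the groups did not overlap. The libraries held between 17360455 and 23930217 reads. Of the prostate luminal markers, FOXA1, HOXB13 and STEAP2 were measured above an RPKM of 1 in all 6 libraries, whereas KLK3 and KLK2, defining markers of the line, had at most 1 read in any library. TMPRSS2 lay below an RPKM of 1. Markers of leukocytes (PTPRC) and endothelium (PECAM1) were near 0, whereas COL1A1, a fibroblast marker, averaged 5.14 ± 0.307 RPKM in shPDGFC and 6.01 ± 0.418 RPKM in shNC (SD, n = 3 each, adjusted p = 0.0502, limma). KRT18 rose (adjusted p = 0.00147, limma), EPCAM fell (adjusted p = 0.0265, limma), and KRT8 and FOLH1 did not pass. The part of these marker changes in the results below was not tested.

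Promoters of members were read from a supplied set of promoters at RefSeq starts, which held 78 of the 98 genes. The called genes NDUFB9, SDHC and CYC1, which rose, were among those missing from the set. In the 250 bases before the start, the ETS motif CCGGAAG was found on either strand in 18 of 78 members (23.1%), against 11.8% of 15843 protein-coding promoters. The NRF1 core GCGCATG was found on either strand in 13 of 78 members (16.7%), against 5.04% of those promoters. By call, 1 of 5 matched members that rose, 1 of 8 that fell and 16 of 61 that did not pass held the ETS motif. For the NRF1 core the counts were 2 of 5, 2 of 8 and 9 of 61. The ETS and NRF1 motifs overlap in none of the sequences shown, and a match is a description of the letters in this window. The promoters of the 5 changed genes with a match are shown because these genes, from complexes II, III and V and cytochrome c, moved in both directions. They run 5′ to 3′ on the gene's strand of GRCh38.p14 and end at the base before the RefSeq start, with the matches in capitals. SDHB lies at chr1:17054033-17054282 on the minus strand, ATP5F1C at chr10:7787927-7788176 on the plus strand and UQCRQ at chr5:132866392-132866641 on the plus strand. ATP5MC2 lies at chr12:53676084-53676333 and CYCS at chr7:25125261-25125510, both on the minus strand.
SDHB: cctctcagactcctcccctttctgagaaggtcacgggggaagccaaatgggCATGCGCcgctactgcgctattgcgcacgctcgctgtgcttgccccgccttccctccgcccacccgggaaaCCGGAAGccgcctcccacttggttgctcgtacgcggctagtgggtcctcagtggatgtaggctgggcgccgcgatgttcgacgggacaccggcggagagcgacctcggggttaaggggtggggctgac
ATP5F1C: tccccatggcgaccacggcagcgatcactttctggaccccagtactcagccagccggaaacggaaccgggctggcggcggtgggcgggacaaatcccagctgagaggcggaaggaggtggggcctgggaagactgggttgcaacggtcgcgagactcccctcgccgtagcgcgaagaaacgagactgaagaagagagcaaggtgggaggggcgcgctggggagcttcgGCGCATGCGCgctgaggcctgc
ATP5MC2: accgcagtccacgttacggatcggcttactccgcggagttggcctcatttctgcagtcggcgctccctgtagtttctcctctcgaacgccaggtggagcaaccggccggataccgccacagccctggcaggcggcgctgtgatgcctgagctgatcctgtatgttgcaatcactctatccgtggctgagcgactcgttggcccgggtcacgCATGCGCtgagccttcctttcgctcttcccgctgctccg
UQCRQ: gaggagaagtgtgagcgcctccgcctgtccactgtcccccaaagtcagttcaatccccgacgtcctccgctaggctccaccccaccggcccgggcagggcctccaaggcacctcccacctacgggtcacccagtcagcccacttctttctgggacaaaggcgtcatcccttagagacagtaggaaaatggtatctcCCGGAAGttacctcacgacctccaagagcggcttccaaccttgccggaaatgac
CYCS: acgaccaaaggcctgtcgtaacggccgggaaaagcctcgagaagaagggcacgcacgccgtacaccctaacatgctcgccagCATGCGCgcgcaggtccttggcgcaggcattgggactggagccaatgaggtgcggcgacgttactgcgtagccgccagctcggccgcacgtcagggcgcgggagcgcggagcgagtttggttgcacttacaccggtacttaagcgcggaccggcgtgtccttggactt
Counted from the start, the capitals mark an NRF1 match at -199 to -193 and an ETS match at -128 to -122 in SDHB. In ATP5F1C they mark NRF1 matches on both strands, at -22 to -16 and -19 to -13, which overlap. The match is to the NRF1 core at -39 to -33 in ATP5MC2 and at -168 to -162 in CYCS, and to the ETS motif at -54 to -48 in UQCRQ. SDHB and ATP5F1C were higher in shPDGFC, and ATP5MC2, UQCRQ and CYCS were lower.

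The respiratory genes moved little and in both directions. Levels are in RPKM, reads scaled by gene length and library total. Comparisons of levels between genes, and sums over genes, rest on the lengths used, whose annotation is not given. Of the 98 members, 90 reached an RPKM of 1 in 3 or more libraries and were tested on log2(RPKM + 1) with limma. With an adjusted p under 0.05, 8 rose (8.89% of those tested) and 8 fell (8.89%), and 74 did not pass. Over all 15337 genes tested, 14.2% rose and 15.6% fell, 29.8% in all, against 17.8% of the members. The median log2 change was -0.02 for the members and -0.01 for all genes tested, and the median size of the change, without its sign, was 0.07 for the members and 0.10 for all genes. In 3 members the change reached 1.2-fold on this scale, a size reached by 12.1% of all genes. They were SDHB, which passed, NDUFV2, which is on few reads, and NDUFB8, which did not pass. The libraries of the groups did not overlap for 28 of 90 members (31.1%), 14 above and 14 below. Over all genes tested the share was 46.8%, with 21.7% above and 25.1% below. All 16 called members were among the 28. They were called on these same libraries, so a lack of overlap is no added support for them. Of the 74 members that did not pass, 57 had a 95% interval of the change that lay within 1.2-fold in either direction. The other 17 had wider intervals, among them SDHA, COX6A1, COX8A and ATP5MF, and a change of that size was within their intervals. The same 16 members were called with a pseudocount of 0.5 or 0.1, and no called member reversed its sign under any alternative. With no filter on low values 8 of the 16 lost their call, NDUFAB1, NDUFAF2, SDHC, UQCRC2, UQCRQ, ATP5F1C, ATP5MC2 and CYCS, with adjusted p from 0.0516 to 0.133 (limma). NDUFV2, counted among the 8 falls, passed the filter through the group in which it was high, and 7 falls are left without it. The voom fit on recovered reads called 12 higher and 14 lower.

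**Figure D1:**
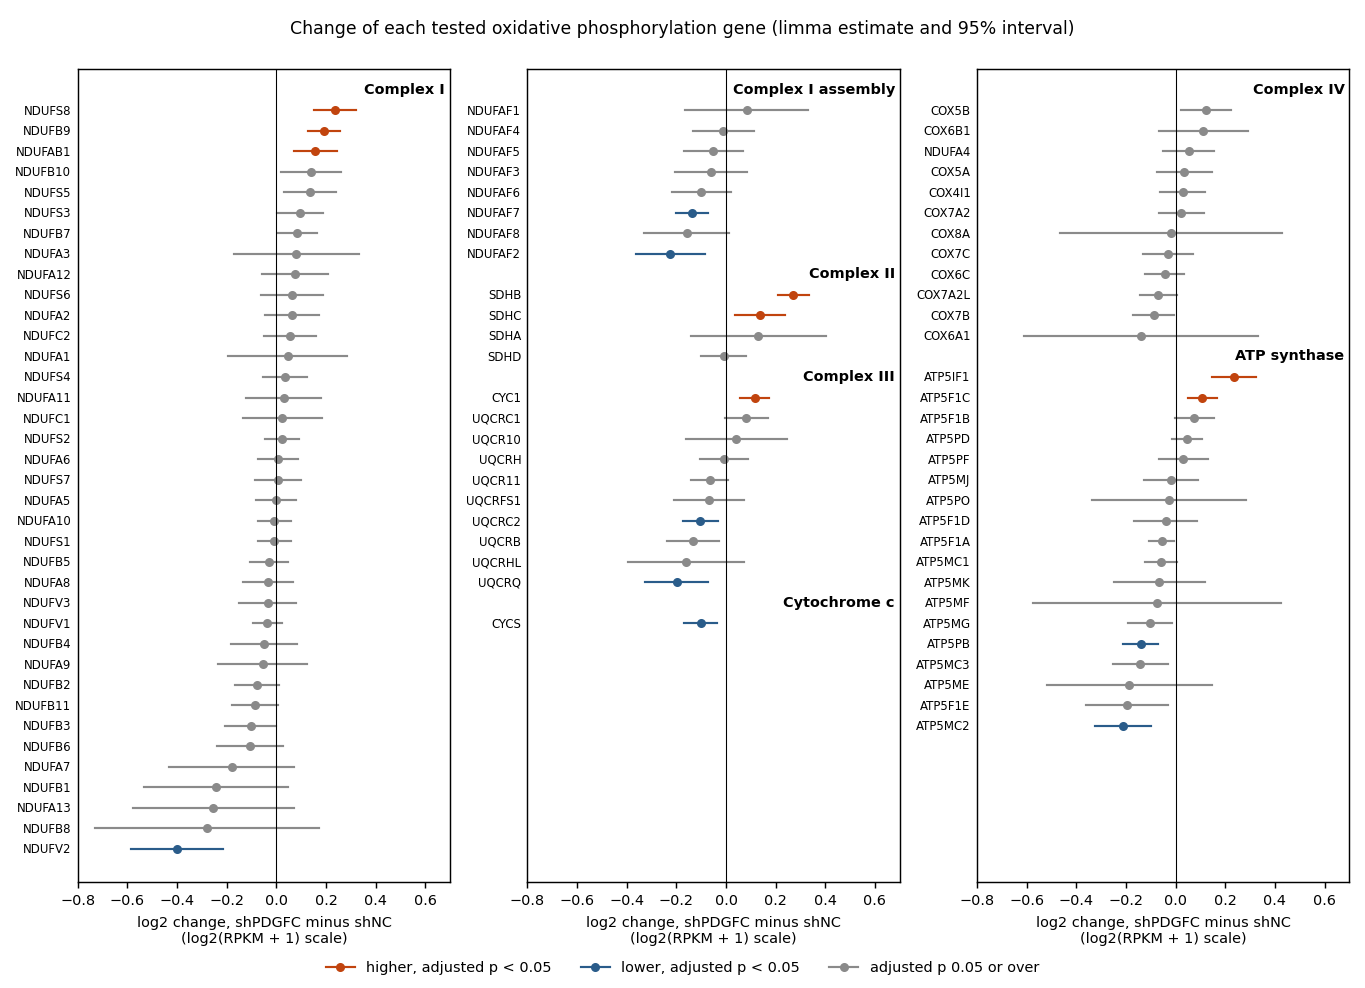
Change of each tested member, as the log2(RPKM + 1) difference of shPDGFC minus shNC, by complex, with the 95% interval of the limma fit and colours for an adjusted p under 0.05 higher, lower or not passed. Most points sit close to 0, SDHB at 0.27 is the highest and NDUFV2 at -0.40 the lowest.

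Complex I subunits showed 3 rises and 1 fall among 37 tested (8.11% and 2.7%, against 14.2% and 15.6% of all genes tested). The median log2 change was 0.01. NDUFS8, an iron-sulfur core subunit (chromosome 11, 68030617 to 68036644), stood at 61.0, 61.8 and 63.3 RPKM in shPDGFC libraries, against 55.1, 50.1 and 52.4 RPKM in shNC libraries. NDUFB9, an accessory subunit of the membrane arm, stood at 179.6, 172 and 181 RPKM in shPDGFC libraries, against 157, 155 and 154 RPKM in shNC libraries. NDUFAB1, the mitochondrial acyl carrier protein that also serves fatty acid synthesis, stood at 87.1, 83.4 and 79.8 RPKM in shPDGFC libraries, against 72.3, 75.7 and 76.2 RPKM in shNC libraries. For these 3 genes every shPDGFC library lay above every shNC library. The log2 rise was 0.24 ± 0.04 for NDUFS8 (SE, adjusted p = 0.00389, limma), 0.19 ± 0.03 for NDUFB9 (adjusted p = 0.00286, limma) and 0.16 ± 0.04 for NDUFAB1 (adjusted p = 0.0190, limma). NDUFAB1 did not pass without shNC replicate 1 (adjusted p = 0.0599, limma). Exons of NDUFB9 overlap those of MTSS1 and TATDN1 on the opposite strand, and 25.4% of the 50-base stretches of its transcript also occur in transcripts of other genes, so part of its reads could belong to them.

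The largest fall among the members was on few reads. NDUFV2, an iron-sulfur core subunit of the NADH-oxidising arm (chromosome 18, 9102630 to 9134345), stood at 0.941, 1.06 and 0.986 RPKM in shPDGFC libraries, against 1.71, 1.47 and 1.73 RPKM in shNC libraries. Those levels rest on 50 reads in the 3 shPDGFC libraries together and 92 in the 3 shNC libraries, or 14 to 35 per library. The groups did not overlap. Its 3 shNC libraries, the group where it was high, were enough for it to pass the filter on low values, so its p with the filter supports nothing. In the fit with no filter its log2 change was -0.40 (adjusted p = 0.0351, limma).

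NDUFS5 and NDUFA1, accessory subunits, were the most abundant genes of complex I. NDUFS5 averaged 324 ± 14.3 RPKM in shPDGFC and 295 ± 13.7 RPKM in shNC (SD, n = 3 each), with no overlap between the groups and an adjusted p of 0.0569 (limma). Leaving out shNC replicate 3 brought it past the threshold (adjusted p = 0.0418, limma), as did 4 other alternatives. NDUFA1 averaged 186 ± 17.7 RPKM in shPDGFC and 181 ± 23.3 RPKM in shNC (SD, n = 3 each, adjusted p = 0.773, limma). Across the complex the mean level ran from 1.32 RPKM for NDUFV2 to 309.6 RPKM for NDUFS5, with a median of 57.3 RPKM. How reads were counted is not given, and NDUFV2 had 14 to 35 reads per library. Its low listed level and the size of its fall are therefore uncertain, and the cause of that level was not tested.

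Of the 8 complex I assembly factors, 0 rose and 2 fell (0% and 25%, against 14.2% and 15.6% of all genes tested), with a median log2 change of -0.08. NDUFAF7, a methyltransferase that modifies a core subunit during assembly, stood at 19.3, 19.6 and 19.3 RPKM in shPDGFC libraries, against 21.9, 20.8 and 21.6 RPKM in shNC libraries. NDUFAF2, which binds a late assembly intermediate, stood at 50.3, 51.8 and 45.4 RPKM in shPDGFC libraries, against 58.4, 60.7 and 53.8 RPKM in shNC libraries. For both, all 3 shPDGFC libraries lay below the lowest shNC library. The log2 change was -0.14 ± 0.03 for NDUFAF7 (SE, adjusted p = 0.00953, limma) and -0.22 ± 0.06 for NDUFAF2 (SE, adjusted p = 0.0273, limma). NDUFAF2 lost its call without shPDGFC replicate 1 or 3 or without shNC replicate 1 or 2 (adjusted p from 0.05 to 0.0765, limma) and with the length trend removed (0.0686), and 40.6% of the 50-base stretches of its transcript also occur in its pseudogene NDUFAF2P1. NDUFAF3, the second most abundant factor, averaged 33.1 ± 2.70 RPKM in shPDGFC and 34.6 ± 2.01 RPKM in shNC (SD, n = 3 each, adjusted p = 0.506, limma). Summed over the 8 factors, the level was 189, 183 and 177 RPKM in shPDGFC libraries, against 204, 199 and 192 RPKM in shNC libraries, and the groups did not overlap.

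Complex II had rises in 2 of its 4 subunits and no falls (50% and 0%, against 14.2% and 15.6% of all genes tested). SDHB, the iron-sulfur subunit (chromosome 1, 17018722 to 17054170), whose promoter is shown above, had the largest rise of all members. It stood at 104, 104 and 102 RPKM in shPDGFC libraries, against 82.5, 86.4 and 86.6 RPKM in shNC libraries. The spread within each group was small beside the gap between the groups. The ratio of means was 1.21 and the log2 change 0.27 ± 0.03 (SE, adjusted p = 0.000868, limma), and the call was kept under all 15 alternatives. SDHC, a membrane anchor (chromosome 1, 161314257 to 161375340), stood at 89.2, 98.6 and 89.2 RPKM in shPDGFC libraries, against 81.5, 84.0 and 85.7 RPKM in shNC libraries. Its groups did not overlap, but the log2 change of 0.14 ± 0.04 (SE, adjusted p = 0.0480, limma) lay at the threshold. Without any 1 of the 6 libraries its adjusted p ran from 0.0509 to 0.133 (limma), and with upper-quartile scaling it was 0.0757. SDHD, the other anchor, averaged 63.0 ± 1.96 RPKM in shPDGFC and 63.5 ± 2.80 RPKM in shNC (SD, n = 3 each), and its log2 change had a 95% interval from -0.10 to 0.08.

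SDHA, the flavin-bearing catalytic subunit that pairs with SDHB, was listed far below its partners. It stood at 2.25, 2.86 and 2.27 RPKM in shPDGFC libraries, against 2.5, 1.71 and 2.30 RPKM in shNC libraries, and the groups overlapped. Its adjusted p was 0.431 (limma) with a 95% interval of the log2 change from -0.14 to 0.40, on 84 to 161 reads per library. Of the 50-base stretches of its transcript, 22.3% also occur in transcripts of other genes, most of all in the pseudogene SDHAP3. How reads with several matches were counted is not given in the sources, so the level of SDHA is uncertain. Summed over the 4 subunits, complex II stood at 260.1, 268 and 254 RPKM in shPDGFC libraries, against 233, 233 and 238 RPKM in shNC libraries, 1.11 times the shNC level. That gap came mostly from SDHB and SDHC, which were called on these same libraries, so it is no added support. No other complex with more than 1 subunit gene had summed levels that did not overlap between the groups. Their ratios lay between 0.989 and 1.02, with the inhibitor ATP5IF1 included in the sum of complex V.

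**Figure D2:**
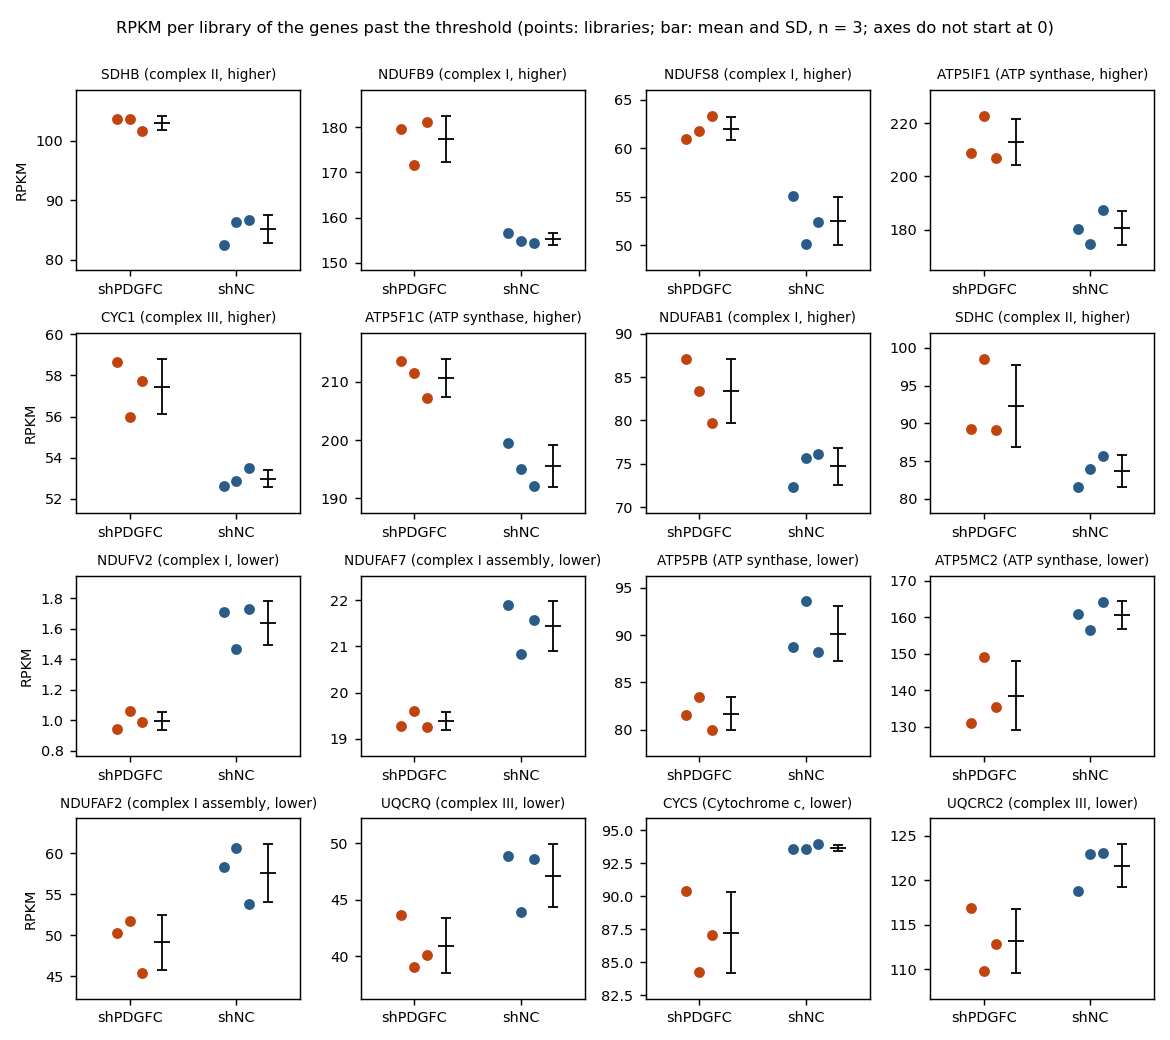
RPKM of each of the 16 members past the threshold in every library, shPDGFC left of shNC, with bars for the mean and SD (n = 3) and axes that do not start at 0. In all 16 panels the libraries of the groups do not overlap, against 46.8% of all genes tested. The genes were called on these same libraries, so this is no added support. The gap is narrow in UQCRQ, UQCRC2 and SDHC.

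Complex III had 1 rise and 2 falls among 10 tested genes (10% and 20%, against 14.2% and 15.6% of all genes tested). CYC1, the cytochrome c1 haem protein that passes electrons to cytochrome c, stood at 58.7, 56.0 and 57.7 RPKM in shPDGFC libraries, against 52.6, 52.8 and 53.5 RPKM in shNC libraries. UQCRC2, a core protein of the matrix side (chromosome 16, 21952660 to 21983660), stood at 117, 109.8 and 113 RPKM in shPDGFC libraries, against 119, 123 and 123 RPKM in shNC libraries. UQCRQ, a small subunit (chromosome 5, 132866560 to 132868031) whose promoter is shown above, stood at 43.7, 39.0 and 40.1 RPKM in shPDGFC libraries, against 48.9, 43.9 and 48.6 RPKM in shNC libraries. The groups did not overlap for any of the 3, but for UQCRQ shPDGFC replicate 1 and shNC replicate 2 nearly met. The log2 change was 0.11 ± 0.02 for CYC1 (SE, adjusted p = 0.0127, limma), -0.10 ± 0.03 for UQCRC2 (SE, adjusted p = 0.0363, limma) and -0.20 ± 0.05 for UQCRQ (SE, adjusted p = 0.0306, limma). UQCRC2 did not pass without shPDGFC replicate 2 or 3 or shNC replicate 2 or 3 (adjusted p from 0.0864 to 0.109, limma), with TPM scaling (0.0769) or with the length trend removed (0.0566). UQCRQ did not pass without shPDGFC replicate 2 or 3 or shNC replicate 1 or 3 (adjusted p from 0.0822 to 0.0923, limma). CYC1 and UQCRC2 therefore moved in opposite directions within 1 complex. UQCRH, the hinge protein and the most abundant member of the complex, averaged 423 ± 2.98 RPKM in shPDGFC and 426 ± 23.0 RPKM in shNC (SD, n = 3 each, adjusted p = 0.902, limma).

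Cytochrome c, which also triggers caspase activation when released from mitochondria, fell slightly. CYCS (chromosome 7, 25120091 to 25125361) stood at 90.4, 84.3 and 87.0 RPKM in shPDGFC libraries, against 93.5, 93.6 and 93.9 RPKM in shNC libraries. The shNC libraries were nearly equal and all lay above the shPDGFC ones. Its log2 change was -0.10 ± 0.03 (SE, adjusted p = 0.0333, limma), and it did not pass without shPDGFC replicate 2 or 3 or any 1 shNC library (adjusted p from 0.0708 to 0.0914, limma). With TPM scaling the change of CYCS was -0.10 and did not pass (adjusted p = 0.0722, limma), and with upper-quartile scaling it was -0.12 and did (adjusted p = 0.0214, limma).

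No complex IV subunit passed the threshold among 12 tested, where 14.2% of all genes tested rose and 15.6% fell. The median log2 change was 0.00. The voom fit on recovered reads called 2 of the 12, COX5B higher and COX7B lower. COX5B was also called with a minimum RPKM of 5 and with the length trend removed. COX7B was also called without shNC replicate 2 (adjusted p = 0.0211, limma). In the main fit COX5B averaged 136 ± 6.59 RPKM in shPDGFC and 125 ± 4.97 RPKM in shNC (SD, n = 3 each, adjusted p = 0.0725, limma), without overlap. COX5B is named after its values were seen. COX7C, a small subunit and the most abundant of all members, averaged 489.8 ± 23.5 RPKM in shPDGFC and 500.1 ± 15.98 RPKM in shNC (SD, n = 3 each), with a 95% interval of the log2 change from -0.13 to 0.07. COX4I1, the widely expressed form of a regulatory subunit, averaged 282 ± 7.33 RPKM in shPDGFC and 276 ± 12.2 RPKM in shNC (SD, n = 3 each), with a 95% interval from -0.06 to 0.12. COX7B averaged 56.1 ± 0.990 RPKM in shPDGFC and 59.7 ± 2.64 RPKM in shNC (SD, n = 3 each, adjusted p = 0.0971, limma). NDUFA4, which was first assigned to complex I and is now placed in complex IV, averaged 62.7 ± 3.61 RPKM in shPDGFC and 60.3 ± 1.71 RPKM in shNC (SD, n = 3 each, adjusted p = 0.397, limma).

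Several complex IV subunits exist as a widely expressed form and a form restricted to particular tissues, such as muscle, lung or testis. The widely expressed forms COX4I1, COX6A1, COX6B1, COX7A2, COX7B and COX8A, and the related gene COX7A2L, were all measured and all tested. The restricted forms COX4I2, COX6A2 and COX7A1 were listed at 0 in all 6 libraries. For the sperm-associated COX6B2, COX7B2 and COX8C, the highest count in any library was 3, 1 and 6 reads, too few for a comparison. A count of 0 allows up to 3 reads, which is 0.125 to 0.173 CPM depending on the library, for counting error only. NDUFA4L2, a paralogue of NDUFA4 known as a hypoxia target, stood at 0.636, 0.732 and 0.591 RPKM in shPDGFC libraries, against 0.852, 0.884 and 1.04 RPKM in shNC libraries. Its groups did not overlap, on 13 to 28 reads per library, but in the fit with no filter on low values its log2 change of -0.22 ± 0.08 (SE) did not pass (adjusted p = 0.203, limma). The last untested member, the intronless ATP5MGL of complex V, had at most 2 reads in any library.

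**Figure D3:**
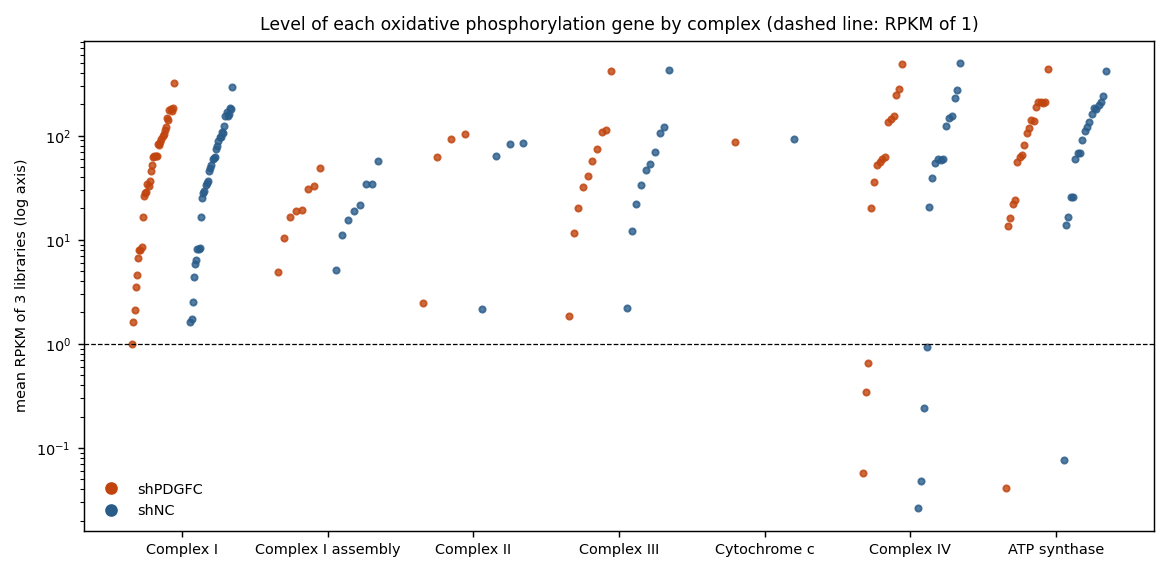
Mean RPKM of each member by complex on a log axis, shPDGFC left of shNC, with a dashed line at an RPKM of 1. Members with a mean of 0 cannot be drawn on the axis, and the group means of the 12 tested complex IV genes lie between 20.3 RPKM (COX8A, shPDGFC) and 500.1 RPKM (COX7C, shNC).

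Complex V had 2 rises and 2 falls among 18 tested genes (11.1% each, against 14.2% and 15.6% of all genes tested). The changed genes were subunits of different portions of the enzyme and its inhibitor, which is not a subunit. ATP5IF1, the inhibitor that blocks ATP hydrolysis by the synthase (chromosome 1, 28236109 to 28246906), stood at 209, 223 and 207 RPKM in shPDGFC libraries, against 180.2, 175 and 187 RPKM in shNC libraries. ATP5F1C, the central rotor shaft (chromosome 10, 7788129 to 7807815), whose promoter is shown above, stood at 214, 212 and 207 RPKM in shPDGFC libraries, against 199, 195 and 192 RPKM in shNC libraries. The groups did not overlap for either gene. The log2 rise was 0.23 ± 0.04 for ATP5IF1 (SE, adjusted p = 0.00476, limma) and 0.11 ± 0.03 for ATP5F1C (SE, adjusted p = 0.0177, limma). ATP5IF1 kept its call under all 15 alternatives, and ATP5F1C lost it without shNC replicate 3 (adjusted p = 0.0674, limma). ATP5PB, the peripheral stalk subunit that holds the stator (chromosome 1, 111448864 to 111462773), stood at 81.6, 83.5 and 80.0 RPKM in shPDGFC libraries, against 88.7, 93.6 and 88.2 RPKM in shNC libraries. It was lower in every shPDGFC library, with a log2 change of -0.14 ± 0.03 (SE, adjusted p = 0.0131, limma). Exons of ATP5PB overlap those of WDR77 on the opposite strand over 10.3% of their length. Among the members that did not pass, ATP5F1B, the catalytic subunit, averaged 443 ± 16.4 RPKM in shPDGFC and 419.8 ± 3.58 RPKM in shNC (SD, n = 3 each, adjusted p = 0.125, limma), and passed without shPDGFC replicate 3 (adjusted p = 0.0483, limma). ATP5ME, a small membrane subunit and the second most abundant after the catalytic one, averaged 212 ± 34.4 RPKM in shPDGFC and 242 ± 37.4 RPKM in shNC (SD, n = 3 each, adjusted p = 0.356, limma).

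The rotor ring of complex V is built from identical mature copies of subunit c, encoded by ATP5MC1, ATP5MC2 and ATP5MC3, which differ in their import sequences. ATP5MC2 (chromosome 12, 53632726 to 53677408) stood at 131, 149 and 135 RPKM in shPDGFC libraries, against 161, 157 and 164 RPKM in shNC libraries. All 3 shPDGFC libraries were lower, and the log2 change was -0.21 ± 0.05 (SE, adjusted p = 0.0152, limma). It did not pass without shPDGFC replicate 3 (adjusted p = 0.0516, limma) or shNC replicate 3 (adjusted p = 0.0522, limma). ATP5MC1 averaged 106 ± 2.98 RPKM in shPDGFC and 110.5 ± 1.67 RPKM in shNC, and ATP5MC3 averaged 62.4 ± 4.14 RPKM in shPDGFC and 68.9 ± 1.45 RPKM in shNC (SD, n = 3 each). Neither passed (adjusted p = 0.135 and 0.0577, limma). In both the shPDGFC libraries lay below all shNC libraries, as they did in 25.1% of all genes tested. ATP5MC3 passed without shPDGFC replicate 1 (adjusted p = 0.0432, limma). Summed over the 3 genes, the level was 299, 320.2 and 301 RPKM in shPDGFC libraries, against 342, 336 and 342 RPKM in shNC libraries. ATP5MC2 made up 45.1 ± 1.38% of that sum in shPDGFC and 47.2 ± 0.691% in shNC (SD, n = 3 each), and the nearest libraries, shPDGFC replicate 2 at 46.56% and shNC replicate 2 at 46.62%, nearly met.

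The shorter members varied more between libraries than the longer ones. COX6A1 stood at 29.6, 48.4 and 30.5 RPKM in shPDGFC libraries, against 44.4, 31.5 and 42.1 RPKM in shNC libraries. ATP5MF, a subunit of the membrane portion of complex V, stood at 46.2, 64.0 and 57.5 RPKM in shPDGFC libraries, against 70.7, 40.9 and 68.5 RPKM in shNC libraries. COX8A stood at 17.7, 24.8 and 18.3 RPKM in shPDGFC libraries, against 23.6, 14.97 and 23.7 RPKM in shNC libraries. In each of these genes shPDGFC replicate 2 was the highest of its group, shNC replicate 2 was the lowest of its group, and the groups overlapped. These genes had the largest spreads within groups of all tested members, and ATP5MF is named after its values were seen. Over the 21 tested members shorter than 600 bases, the median deviation of a library from the gene's mean was -0.04, 0.11 and -0.04 on the log2 scale in shPDGFC libraries, against 0.07, -0.10 and 0.06 in shNC libraries. Over all 1498 tested genes of that length it was -0.06, 0.01 and -0.02 in shPDGFC libraries. In shNC libraries it was 0.07, 0.03 and 0.03. There too shPDGFC replicate 2 was the highest of its group, but shNC replicate 2 was not the lowest of its group. Over the 40 members from 600 to under 1500 bases, shPDGFC replicate 2 was again the highest (0.04) and shNC replicate 2 the lowest (-0.06). Over the 29 longer members shPDGFC replicate 2 was the lowest of its group (-0.03). The source of this pattern was not tested. The median standard deviation within a group, on the log2 scale, was 0.0948 for these 21 genes, 0.0636 for 40 members from 600 to under 1500 bases and 0.0525 for 29 longer members. The number called was 1 of 21, 10 of 40 and 5 of 29 (4.76%, 25% and 17.2%), against 13.6%, 25.1% and 32.9% of all genes tested in the same length classes. The part of length in the results was not tested further than by a fit with the length trend of each library removed, an alternative chosen after the data were seen. That fit called 13 members higher and 6 lower, and 14 of the 16 calls were shared with the uncorrected fit.

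**Figure D4:**
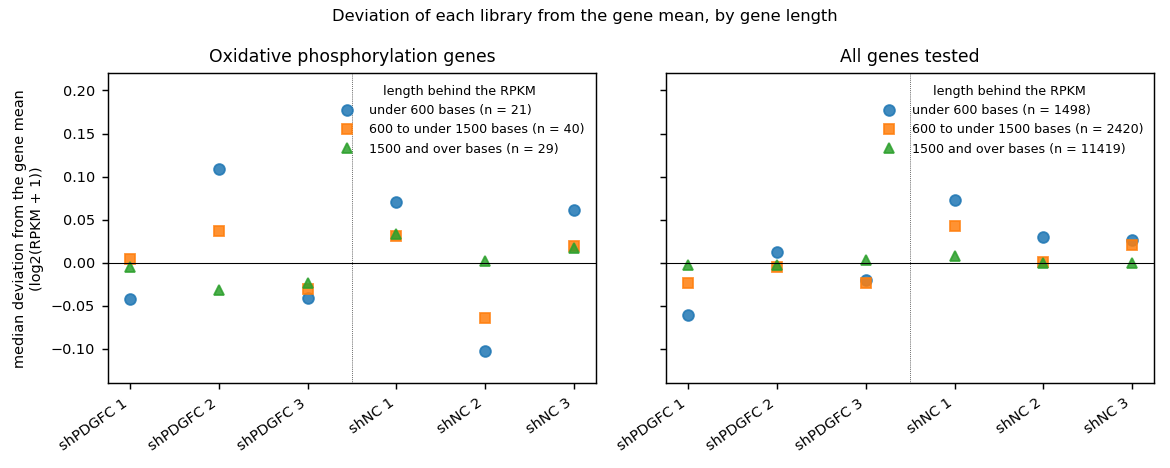
Median deviation of genes from their own mean over all libraries, on the log2(RPKM + 1) scale, by library (shPDGFC left of shNC) and by the gene length behind the RPKM, for the tested members and for all genes tested. Members under 600 bases lie highest in shPDGFC replicate 2 (median 0.11) and lowest in shNC replicate 2 (median -0.10).

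For some members with low levels, sequence shared with other genes was extensive. Of the 50-base stretches of the transcript, 93.9% in NDUFB8, 76.8% in NDUFA7, 69% in ATP5PO, 63.9% in NDUFA11, 53.1% in NDUFA13 and 44% in COX6A1 also occur in transcripts of other genes. These 6 genes were chosen after their values were seen, and shared sequence and low level did not go together in every member. NDUFA1 shared 40.7% at a mean of 183 RPKM and UQCRH 29.4% at 424 RPKM, whereas NDUFV2 shared 1.59% at 1.32 RPKM. The part of shared sequence in the low levels was not tested. NDUFB8, an accessory subunit of complex I, had 3.99, 5.93 and 3.89 RPKM in shPDGFC libraries, against 7.58, 4.36 and 5.59 RPKM in shNC libraries, and the groups overlapped. The levels of the 6 genes are uncertain where the authors' counting could have split or dropped shared reads.

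Genes that build, supply or regulate the complexes were listed apart from the members. Of 9 complex I assembly factors with other names, 0 rose and 2 fell (0% and 22.2%, against 14.2% and 15.6% of all genes tested). TMEM126B, a factor of an early membrane-arm intermediate, averaged 71.0 ± 2.09 RPKM in shPDGFC and 78.9 ± 1.56 RPKM in shNC (SD, n = 3 each, adjusted p = 0.00865, limma). TMEM186, which acts with it, averaged 12.6 ± 0.0925 RPKM in shPDGFC and 14.3 ± 0.534 RPKM in shNC (SD, n = 3 each, adjusted p = 0.00765, limma). Of 13 assembly factors of complexes II, III and V, 1 rose and 2 fell (7.69% and 15.4%, against 14.2% and 15.6% of all genes tested). ATPAF1, a chaperone of the catalytic subunit of complex V, averaged 73.0 ± 0.809 RPKM in shPDGFC and 62.7 ± 1.12 RPKM in shNC (SD, n = 3 each, adjusted p = 0.00113, limma). SDHAF3, which helps to fit the iron-sulfur centres into SDHB, fell, whereas SDHB rose. It averaged 47.3 ± 1.48 RPKM in shPDGFC and 53.3 ± 2.40 RPKM in shNC (SD, n = 3 each, adjusted p = 0.0169, limma), and did not pass without shNC replicate 1 or 3 (adjusted p = 0.0555 and 0.0558, limma). SDHAF4, which assists SDHA, averaged 9.35 ± 0.787 RPKM in shPDGFC and 11.7 ± 1.39 RPKM in shNC (SD, n = 3 each, adjusted p = 0.0416, limma), and did not pass without shPDGFC replicate 1 or 3 or shNC replicate 1 or 2 (adjusted p from 0.0713 to 0.114, limma), nor with TPM scaling (0.0503).

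Of 20 tested assembly factors of complex IV, 2 rose and 5 fell (10% and 25%, against 14.2% and 15.6% of all genes tested), with a median log2 change of -0.01. SCO1, a copper chaperone, averaged 10.3 ± 0.180 RPKM in shPDGFC and 9.07 ± 0.140 RPKM in shNC (SD, n = 3 each, adjusted p = 0.00655, limma). COX11, which delivers copper to a catalytic centre, averaged 43.1 ± 1.597 RPKM in shPDGFC and 47.7 ± 0.539 RPKM in shNC (SD, n = 3 each, adjusted p = 0.0121, limma). COX20, a chaperone of a mitochondrially encoded subunit, averaged 14.5 ± 0.0603 RPKM in shPDGFC and 16.8 ± 0.371 RPKM in shNC (SD, n = 3 each, adjusted p = 0.00272, limma). COA5 averaged 36.7 ± 0.328 RPKM in shPDGFC and 41.8 ± 0.431 RPKM in shNC (SD, n = 3 each, adjusted p = 0.00155, limma). The remaining changed factors were COA7, which rose, and COA6 and COA4, which fell, the last 2 named after their values were seen. COA7 did not pass without shPDGFC replicate 1 or 3 or shNC replicate 2 (adjusted p from 0.0583 to 0.0644, limma), COA6 without shPDGFC replicate 1 or shNC replicate 1 or 3 (0.0562 to 0.081), and COA4 without shPDGFC replicate 2 or 3 or shNC replicate 1 or 2 (0.098 to 0.128). COA4 also failed with voom (0.0726), TPM scaling (0.0775) and the length trend removed (0.33). PET117, an untested factor below the filter and named after its values were seen, had 0.150, 0.166 and 0.0864 RPKM in shPDGFC libraries, against 0.472, 0.238 and 0.341 RPKM in shNC libraries, with no overlap but only 9 and 27 reads in the groups.

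Among the tested genes of these lists, the largest change was in a gene of import into the intermembrane space. CHCHD4, the oxidoreductase that traps cysteine-rich proteins there, among them small subunits and assembly factors of complexes I and IV, stood at 19.5, 20.1 and 18.9 RPKM in shPDGFC libraries, against 28.5, 30.2 and 29.7 RPKM in shNC libraries. All shPDGFC libraries lay far below all shNC libraries, and the log2 change was -0.57 ± 0.03 (SE, adjusted p = 0.000207, limma), a call kept under all 15 alternatives. AIFM1, the flavoprotein that holds CHCHD4 in place, averaged 55.2 ± 3.53 RPKM in shPDGFC and 49.8 ± 0.834 RPKM in shNC (SD, n = 3 each, adjusted p = 0.0472, limma). It did not pass without shPDGFC replicate 1 or 3 or any 1 shNC library (adjusted p from 0.074 to 0.121, limma), nor with upper-quartile or TPM scaling (0.061 and 0.0725). The other 8 tested genes of that list, with carriers of ADP and ATP and the electron-transfer flavoproteins, did not pass.

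Of 12 transcriptional regulators of respiratory genes, 0 rose and 3 fell (0% and 25%, against 14.2% and 15.6% of all genes tested). YY1 stood at 41.8, 41.9 and 41.7 RPKM in shPDGFC libraries, against 48.5, 48.5 and 49.9 RPKM in shNC libraries (adjusted p = 0.00096, limma). GABPA, the DNA-binding subunit of GABP, stood at 26.5, 25.3 and 26.1 RPKM in shPDGFC libraries, against 29.1, 29.3 and 28.7 RPKM in shNC libraries (adjusted p = 0.00548, limma). PPARGC1A, a coactivator of mitochondrial biogenesis, averaged 3.32 ± 0.0346 RPKM in shPDGFC and 3.85 ± 0.132 RPKM in shNC (SD, n = 3 each, adjusted p = 0.0327, limma), and did not pass without any 1 shPDGFC library or without shNC replicate 1 or 3 (adjusted p from 0.0638 to 0.105, limma). For these 3 genes all shPDGFC libraries lay below all shNC libraries. NRF1 stood at 6.84, 6.42 and 6.08 RPKM in shPDGFC libraries, against 5.81, 5.70 and 5.94 RPKM in shNC libraries. All its shPDGFC libraries lay above all shNC libraries, but its log2 change of 0.13 ± 0.05 (SE) did not pass (adjusted p = 0.0832, limma). NRF1 is named here after its values were seen. Exons of GABPA overlap those of the member ATP5PF on the opposite strand.

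The 13 mitochondrially encoded subunits, which share the complexes with the members, had a median log2 change of 0.20, against -0.02 for the members. Among them 3 rose and 1 fell (23.1% and 7.69%, against 14.2% and 15.6% of all genes tested). MT-ND6, a complex I subunit encoded on the opposite strand to the others, had 154, 168 and 171 RPKM in shPDGFC libraries, against 224, 200.4 and 210.1 RPKM in shNC libraries. Its log2 change was -0.36 ± 0.05 (SE, adjusted p = 0.00303, limma). MT-CYB of complex III stood at 2025, 2244 and 1947 RPKM in shPDGFC libraries, against 1636, 1771 and 1687 RPKM in shNC libraries. MT-ND5 of complex I stood at 2266, 2657 and 2299 RPKM in shPDGFC libraries, against 1709, 2084 and 1938 RPKM in shNC libraries. The groups did not overlap for MT-ND6, MT-CYB or MT-ND5. The log2 rise was 0.29 for MT-CYB (adjusted p = 0.0133, limma), 0.33 for MT-ND5 (adjusted p = 0.0288, limma) and 0.25 for MT-ND2, also of complex I (adjusted p = 0.0386, limma). MT-CYB did not pass without shNC replicate 1 (adjusted p = 0.0524, limma), nor MT-ND5 without shPDGFC replicate 2 or 3 or shNC replicate 1 or 3 (adjusted p from 0.0529 to 0.0808, limma). MT-ND2 stood at 1944, 2170.2 and 1909.9 RPKM in shPDGFC libraries, against 1544, 1803 and 1719 RPKM in shNC libraries, and did not pass without any 1 shPDGFC library or without shNC replicate 1 or 3 (adjusted p from 0.0551 to 0.113, limma), nor with upper-quartile scaling (0.0528). The share of all reads from mitochondrial genes was 4.18%, 4.66% and 4.18% in shPDGFC libraries, against 3.73%, 4.06% and 3.86% in shNC libraries, with no overlap. In bulk RNA, less RNA per cell and fewer cells with the RNA cannot be told apart, and RPKM values are relative to the total reads of a library.

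**Figure D5:**
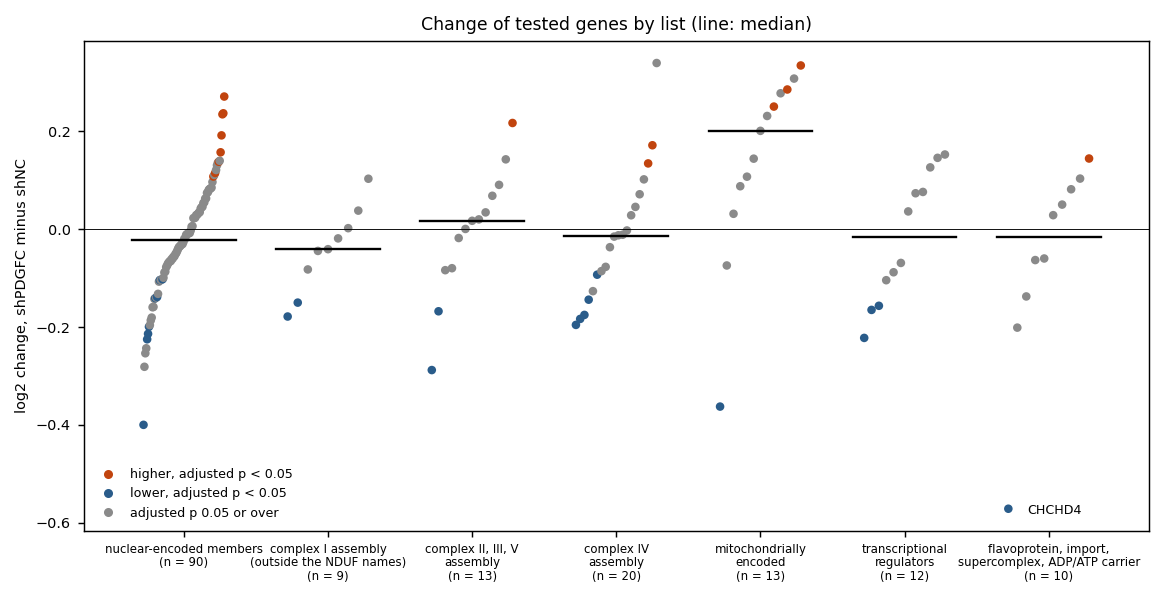
Log2(RPKM + 1) change, shPDGFC minus shNC, of each tested gene in the members and in 6 lists around them, with the median as a line and colours for an adjusted p under 0.05. CHCHD4 at -0.57 is the lowest point, and the mitochondrially encoded subunits have the highest median, 0.20.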

How the data were processed

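The authors deposited 1 table of 60664 human Ensembl identifiers with a value per gene in 6 libraries. Its values were read as RPKM, reads scaled by gene length and library total, from their structure, because within each gene they stand in ratios of whole numbers for 37040 of 37040 genes with any value (tolerance 1e-09). The reads behind the deposited RPKM values were recovered that way, between 99.45% and 99.46% of each library's total of 17360455 to 23930217 reads, with 521 genes rescaled by a common divisor. Which aligner, counter, annotation and strand were used is not given in the sources used here. Mouse builds, GRCm38 and mm10, appear in the submitters' processing notes, although the identifiers are human. Per the labels' protocols, single-end libraries were made from total RNA of pooled samples.

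Coordinates and biotypes are from GENCODE 29 (GRCh38), symbols from a gene name table that matched 60463 identifiers. NDUFA4 and NDUFA4L2 were counted in complex IV. The 15337 genes that reached an RPKM of 1 in 3 or more libraries were compared with limma 3.58.1 in R 4.3.3 on log2(RPKM + 1), a scale that understates changes of low genes. The model had a mean-variance trend and no block, with Benjamini-Hochberg adjustment over all genes and a threshold of 0.05. Same-group libraries differed beyond sampling noise (chi-square per degree of freedom 1.462 to 2.566), and none was left out. Shared sequence was counted as 50-base stretches of a protein-coding transcript that occur in any other gene's transcript. The fit was also run on simulated data, but with changes larger than those of nearly all members. That run is no support for changes of the size seen here.

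The members, lists and tests were chosen with earlier results of these data known. Named genes are PDGFC, every member past the threshold, the 2 most abundant members of each complex, tissue-restricted isoforms and their partners, the subunit c genes, members below the filter, and in each list at most 3 changed genes per direction. The alternatives were pseudocounts of 0.5 and 0.1, no filter, a minimum RPKM of 5, upper-quartile and TPM scaling, voom on recovered reads, a replicate block, each library left out in turn, and, chosen after seeing the data, removal of each library's length trend. The NRF1 core was shortened from a longer palindrome, and the bound of 1.2-fold lowered, after the data were seen. Some of the marker genes examined are not reported here. Scripts ran in Python 3.11.15.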

Additional observations from a re-analysis of the deposited data

How the results depend on the processing

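The number of members higher in shPDGFC was 8 and moved to 5 with no filter on low values and to 13 with the length trend removed. The number lower was 8 and moved to 3 with no filter and to 14 with voom on recovered reads. Leaving out 1 library at a time gave 6 to 8 members higher and 3 to 8 lower, with 3 lower without shPDGFC replicate 3, 5 without shNC replicate 1 and 4 without shNC replicate 3. With no filter, 37040 genes were tested and 8 of the 16 calls were shared. In the other lists, SDHAF3, SDHAF4, COA4, COA6, MT-ND2, MT-ND5, MT-CYB, PPARGC1A and AIFM1 also lost their calls with no filter (adjusted p from 0.0529 to 0.177). Upper-quartile scaling gave 7 higher and 10 lower, and TPM scaling 9 and 6. The median log2 change of the members lay between -0.05 and 0.01 and was above 0 without shNC replicate 1 and with the length trend removed. PDGFC kept its direction and its call under all alternatives.

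Libraries with the same replicate number did not deviate together (correlations of -0.101, -0.111 and -0.018 over 15337 genes), so the numbers were not taken to pair them. With a replicate block, 7 members were higher and 7 lower, against 1628 and 1841 of all genes, and 12 of the 16 calls were shared. The calls lost under the block were NDUFAB1, SDHC, UQCRC2 and CYCS, with adjusted p from 0.0588 to 0.0935.

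NDUFV2 and NDUFA4L2 were limited by few reads, at most 35 and 28 per library. For 17 members that did not pass, the 95% interval reached beyond 1.2-fold.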
